A study of Homo sapiens with 6 samples.

Results

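AluS repeats are the most numerous branch of the Alu family of short interspersed elements, and the data gave the RNA of their single copies in SW480, a long-established line of human colon adenocarcinoma cells. A locus was counted as AluS when its RepeatMasker subfamily name began with AluS and it had a row in at least 1 of the 6 tables of transposable element (TE) counts. This rule, which used no measured difference, gave 168875 of 728165 listed TE loci (23.2%) in 17 subfamilies. Of these, 86323 had fragments on their own strand, the strand on which the element would be transcribed from its own promoter, 92962 had fragments on the opposite strand and 10410 had both.

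Polyadenylated RNA of SW480 cells was compared between 3 libraries labelled Clover and 3 labelled Z18trunc. Both groups had received a pLENTI CMV lentiviral construct and antibiotic selection, Clover cells for the fluorescent protein alone and Z18trunc cells for a truncated form of ZC3H18, a nuclear factor that hands RNA to decay complexes. Both groups kept their own copies of the ZC3H18 gene, and the transgene was driven by a viral promoter, so that Z18trunc cells are a model of a truncated protein added on top of the resident one. The methods describe lines made in triplicate, while the titles only number the libraries, so that p-values measure the spread between these 6 libraries. In bulk RNA, a change in the number of expressing cells and a change in RNA per cell cannot be told apart.

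An Alu element is a primate repeat with a left and a right arm that both descend from the RNA of the signal recognition particle. Its left arm holds an internal promoter for RNA polymerase III, made of an A box and a B box, and its end is a run of A. AluS copies spread after the older AluJ and before the younger AluY elements, and most of them now lie in introns and untranslated regions, where they are copied as a piece of a longer RNA made by RNA polymerase II. Sequencing of polyadenylated RNA mostly sees such embedded copies. An Alu in the opposite direction nearby can fold back on the first to give double-stranded RNA, the substrate of the editing enzyme ADAR.

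Short motifs were searched in the reference sequence (hg38) of each locus, on its own strand. They were the A box as GGCTCANGC, the B box as GTTCNAGAC and the polyadenylation signal AATAAA. Over all AluS loci, 45.2% held the A box, 43.2% the B box, 20.7% both and 18.9% AATAAA. The 2789 loci with at least 30 own-strand counts over the 6 libraries, which are the loci that were tested, were close to this with 45.8%, 43.1%, 20.9% and 19.8%. Their median length was 297 bp against 298 bp for all AluS loci, and their median divergence from the subfamily consensus was 10.6% against 10.8%. A match is a description of the letters and not a site in use.

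Each library held 18226033 to 22463310 aligned fragments, and a level is given below as counts per 1000000 aligned fragments (CPM), taken from estimated counts in which SQuIRE had divided multiply mapped fragments among loci. Where no fragment was counted, a level of 3 counts, which is 0.134 to 0.165 CPM, cannot be told from 0. ZC3H18 itself stood at 58.4, 51.3 and 61.8 TPM (length-normalized transcript abundance) in Clover and at 752, 739 and 798 TPM in Z18trunc, with a log2 change of 3.72 (SE 0.09, limma adjusted p = 3.2e-05). The epithelial markers EPCAM, KRT8, KRT18, KRT19, CDH1, CDX2 and VIL1 were at 10.1 TPM or more in every library, whereas CEACAM5 was listed at 0 and CDH17 reached 0.0345 TPM. The immune marker PTPRC and the endothelial marker PECAM1 were listed at 0, CD3E, COL1A2 and VWF stayed at or under 0.503 TPM and COL1A1 lay between 1.14 and 1.55 TPM.

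AluS RNA was plentiful in sum and thin at each copy. Own-strand AluS fragments made up 0.546% to 0.635% of all aligned fragments and 22.3% to 24.4% of own-strand TE counts. In each library, 55.2% to 58.6% of the AluS loci listed on their own strand had at most 1 fragment, and 44071 loci had an own-strand row in a single library while 5532 had it in all 6. The median level of a locus with an own-strand row was 0.0161 CPM. At the other end, 757 loci reached 1 CPM and 30 reached 10 CPM, and the 757 held 44.7% of the own-strand AluS CPM. The tested loci held 60.8% of it, and the 83534 loci with a row that fell under 30 counts held the rest.

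To see whether AluS RNA as a whole differed between Z18trunc and Clover, the counts of all AluS loci were summed per library. Own-strand AluS RNA was 5474, 5971 and 5465 CPM in Clover and 5855, 6032 and 6351 CPM in Z18trunc. Clover replicate 2 lay among the Z18trunc libraries, so that the groups overlapped, and the mean log2 difference of 0.11 gave p = 0.2 (exact two-sided permutation test over libraries, for which 0.1 is the smallest value). Without that library the groups did not overlap and the difference was 0.15. On the opposite strand, the sums were 6200, 6086 and 5676 CPM in Clover and 6246, 6660 and 6918 CPM in Z18trunc. There every Z18trunc library was above every Clover library, with a mean log2 difference of 0.14 (p = 0.1, exact permutation test). Opposite-strand AluJ and AluY sums were without overlap as well, with log2 differences of 0.16 and 0.18 (p = 0.1 each, exact permutation tests). Uniquely mapped own-strand AluS counts were also without overlap, at 4068 ± 204 CPM in Clover and 4418 ± 85.0 CPM in Z18trunc (SD, n = 3 each), a log2 difference of 0.12.

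**Figure D1:**
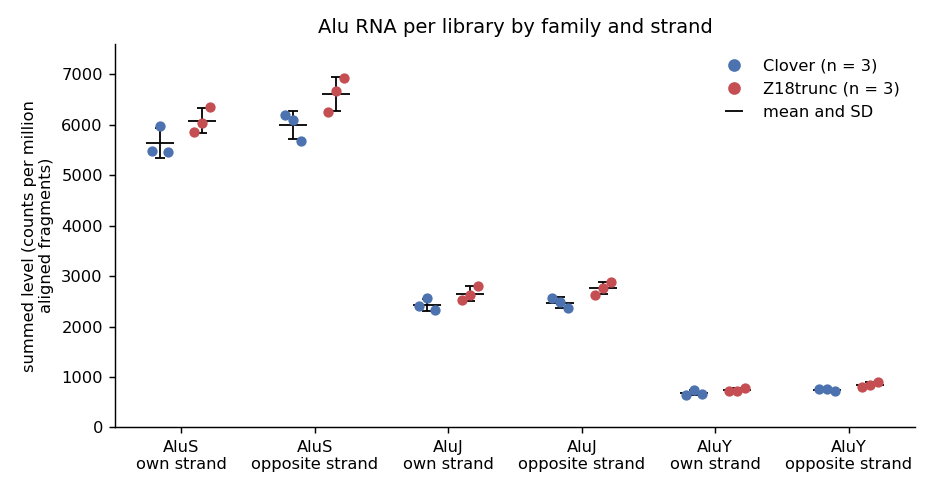
Summed level of AluS, AluJ and AluY RNA per library (y axis, counts per 1000000 aligned fragments) on the own and the opposite strand, with each library as a point and the mean and SD in black (n = 3 per group). AluS stood highest on both strands, and its own-strand groups overlapped because Clover replicate 2 stood at 5971 CPM.

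The other Alu branches differed by about the same amount. Own-strand AluJ RNA, from 76784 older loci, was 2430 ± 121 CPM in Clover and 2650 ± 148 CPM in Z18trunc, and AluY RNA, from 30758 younger loci, was 688 ± 47.5 and 744 ± 34.2 CPM (SD, n = 3 each). The log2 ratio of AluS to AluJ was 1.18, 1.22 and 1.24 in Clover and 1.22, 1.20 and 1.18 in Z18trunc, and the ratio to AluY was 3.07, 3.01 and 3.03 against 3.02, 3.06 and 3.02. Both ratios overlapped between the groups, with differences of -0.02 (p = 0.4) and -0.01 (p = 0.7, exact permutation tests). Within AluS, copies of low and high divergence differed little. The 57252 loci with 5% to under 10% divergence differed by 0.10 on the log2 scale, the 103704 loci with 10% to under 15% by 0.12 and the 7645 loci with 15% or more by 0.08, and the groups overlapped in each class.

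Most own-strand AluS RNA came from a small set of copies inside exons. Only 6969 AluS loci (4.13%) overlapped an annotated exon on their own strand, yet they held 54.6% of the own-strand CPM. The 2911 loci in 3′ UTRs alone held 44.8%, and the 3801 loci in noncoding exons 9.34%. A further 64701 loci lay in introns on the strand of the gene and held 33.3%, while 24856 loci outside genes held 7.59%. Per 1000 loci, this was 459 CPM in exons, 30.1 CPM in introns on the gene strand and 17.9 CPM outside genes. The 72094 loci that lay in genes against the direction of transcription held 4.33% of the own-strand CPM at 3.52 CPM per 1000 loci, and 74.8% of the opposite-strand CPM. On both strands, most AluS RNA lay in the direction of the surrounding gene.

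In exons, AluS RNA was 3015, 3211 and 3167 CPM in Clover and 3268, 3243 and 3283 CPM in Z18trunc. All 3 Z18trunc libraries were above all 3 Clover libraries, but by only 0.06 on the log2 scale (p = 0.1, exact permutation test, 0.3 adjusted over the 4 contexts). The 3′ UTR copies were without overlap as well, with 2575 ± 86.7 CPM in Clover and 2668 ± 17.7 CPM in Z18trunc (SD, n = 3 each). In introns on the gene strand the levels were 1806, 2011 and 1650 CPM in Clover and 1900, 2042 and 2286 CPM in Z18trunc. The mean difference was larger there, 0.19 on the log2 scale, and the groups overlapped (p = 0.2, exact permutation test). Outside genes and against the gene strand the groups overlapped as well, with log2 differences of 0.11 and 0.10 (p = 0.3 each, exact permutation tests). Scaling by opposite-strand TE counts outside exons turned the exonic difference to -0.22 with overlapping groups.

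**Figure D2:**
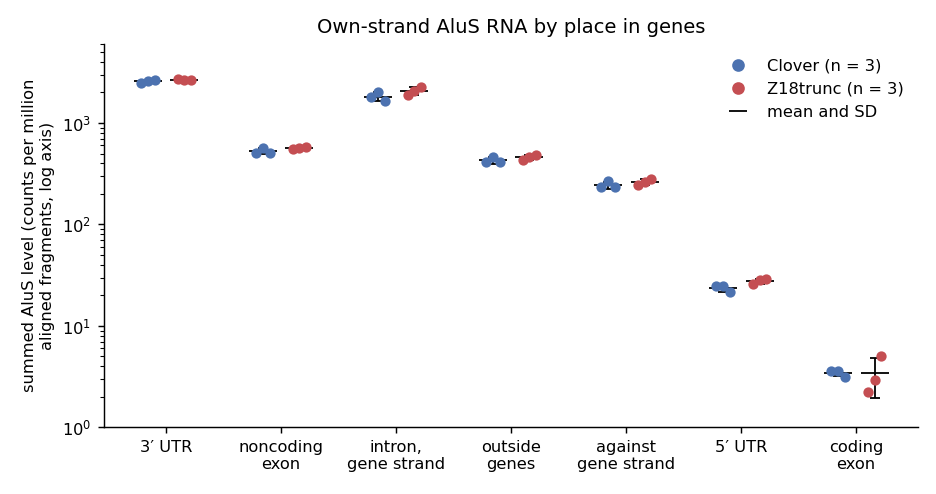
Summed own-strand AluS level per library (y axis, counts per 1000000 aligned fragments, log axis) by place of the locus in annotated genes, with each library as a point and the mean and SD in black (n = 3 per group). Copies in 3′ UTRs and in introns on the gene strand made up most of the RNA, and the groups lay close together in every place.

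Copies that touched no exon on either strand gave a check of the strand. Over these 153833 loci, own-strand AluS RNA was 2377, 2659 and 2217 CPM in Clover and 2501, 2688 and 2966 CPM in Z18trunc, and opposite-strand RNA was 2783, 2627 and 2339 CPM in Clover and 2766, 3051 and 3320 CPM in Z18trunc. The log2 ratio of own to opposite strand was -0.23, 0.02 and -0.08 in Clover and -0.15, -0.18 and -0.16 in Z18trunc. The Z18trunc libraries fell within the Clover range, with a mean difference of -0.07 (p = 0.4, exact permutation test). Outside genes, where a transcript from the element's own promoter would be easiest to see, the 5314 loci with both boxes stood at 98.3, 112 and 102 CPM in Clover and at 102, 110 and 118 CPM in Z18trunc on their own strand. Their opposite strand stood at 78.5 ± 5.45 CPM in Clover and 87.9 ± 6.59 CPM in Z18trunc (SD, n = 3 each). Per 1000 loci, copies outside genes with both boxes had 20.1 CPM and those with neither box 17.2 CPM on their own strand, and the groups overlapped in both sets.

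The 8 most abundant AluS loci all lay in exons and held 7.33% of the own-strand AluS CPM. At the top was the AluSx1 of 310 bp in a noncoding exon of CD63, a tetraspanin of late endosomes (chr12:55726335-55726644). Its level was 95.1, 122 and 106 CPM in Clover and 96.1, 89.1 and 94.2 CPM in Z18trunc, which overlapped. The AluSx1 in the 3′ UTR of the glucose transporter gene SLC2A3 (chr12:7919427-7919710) was at 81.0, 92.7 and 88.4 CPM in Clover and at 94.0, 87.0 and 85.4 CPM in Z18trunc. These 2 copies and the AluSz in the 3′ UTR of SYK, a tyrosine kinase gene (51.3 ± 6.56 CPM in Clover and 53.2 ± 1.08 CPM in Z18trunc, SD, n = 3 each), showed no separation of the groups.

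Among these 8, 3 loci did not overlap between the groups, and edgeR called none of them. Of all tested TE loci, 12% were higher and 3.64% lower without overlap. The AluSx in the 3′ UTR of MYO1C, a myosin gene (chr17:1464813-1465111), was at 49.8, 60.2 and 53.5 CPM in Clover and at 43.1, 44.7 and 42.2 CPM in Z18trunc, below every Clover library (log2 change -0.33, SE 0.10, edgeR adjusted p = 0.23). MYO1C mRNA had a log2 change of -0.08 (SE 0.07). The AluSc in NORAD, a noncoding RNA that binds PUMILIO proteins, was at 27.9, 24.8 and 28.1 CPM in Clover and at 36.0, 33.9 and 31.4 CPM in Z18trunc. It was higher in all 3 (edgeR log2 change 0.33, SE 0.11, adjusted p = 0.27), and NORAD RNA had a log2 change of 0.45 (SE 0.11, limma adjusted p = 0.084). The AluSz in the 3′ UTR of the tropomyosin gene TPM4 was at 44.9, 43.6 and 44.9 CPM in Clover and at 47.2, 51.2 and 51.1 CPM in Z18trunc, again beside a higher host RNA (log2 change 0.31, SE 0.08). Under TMM scaling the value of the TPM4 copy was -0.0079 in place of 0.17, and that of the NORAD copy was 0.16 in place of 0.33. The copies in CAVIN1, a caveolar coat gene, and NCAPD2, a condensin gene, overlapped.

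DESeq2 gave an adjusted p to 623 TE loci and called 18 of them, with 2.09% of the 623 called lower in Z18trunc. Of the 141 AluS loci with such a p it called 3, all lower in Z18trunc. They were the copies in CD63 (log2 change -0.38, DESeq2 adjusted p = 0.026) and MYO1C (-0.50, DESeq2 adjusted p = 0.0019) and an AluSc in an exon of the proteasome gene PSMB2 (chr1:35602500-35602794). CD63 RNA was lower as well (limma log2 change -0.27, SE 0.08). The PSMB2 copy was at 13.9, 13.0 and 14.3 CPM in Clover and at 10.1, 11.1 and 11.5 CPM in Z18trunc, without overlap (log2 change -0.50, DESeq2 adjusted p = 0.025). DESeq2 rescales the libraries so that the median tested AluS locus lay at -0.06.

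Outside annotated genes, the 8 most abundant AluS loci stood much lower, between 1.48 and 16.9 CPM as group means. The copy on chromosome 8 at 125622372 to 125622659, an AluSg4, led with 15.4, 14.5 and 18.2 CPM in Clover and 17.5, 16.4 and 16.7 CPM in Z18trunc. An AluSc8 began 118 bp beyond the annotated end of GART, a purine synthesis gene, on the same strand. Its 6.10 ± 0.21 CPM in Clover and 6.25 ± 0.16 CPM in Z18trunc (SD, n = 3 each) overlapped. An AluSx3 lay 1040 bp beyond CDK9, the elongation kinase gene, on the same strand (chr9:127791832-127792180), with 1.25, 1.73 and 1.48 CPM in Clover and 2.58, 1.70 and 1.86 CPM in Z18trunc. An AluSx3 33508 bp beyond RPP30 and an AluSz 31006 bp beyond AXIN2 were at 4.4 and 4.06 CPM in Clover and 4.87 and 3.51 CPM in Z18trunc. The groups overlapped at all 8 of these loci.

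Locus by locus, edgeR called 4 of the 2789 tested AluS loci at an adjusted p under 0.05, 2 higher and 2 lower in Z18trunc, against 0.201% of all 12453 tested TE loci. The AluSg4 at chr21:8429171-8429480 was at 5.84, 2.14 and 5.55 CPM in Clover and at 1.06, 0.454 and 0.472 CPM in Z18trunc (log2 change -2.73, SE 0.32, edgeR adjusted p = 1.3e-06). An AluSg4 on a chromosome 22 contig, at 163187 to 163496, had no count in Clover and 1.57, 0.168 and 0.546 CPM in Z18trunc (edgeR adjusted p = 0.0020). With 3 counts per library as the Clover floor (mean 0.148 CPM), the Z18trunc mean of 0.763 CPM was 5.16-fold that floor. The value in Z18trunc replicate 2 lay close to the limit of detection of that library, 0.165 CPM. The AluSp at chr21:8245775-8246063 was at 8.47, 3.26 and 7.96 CPM in Clover and at 2.66, 3.36 and 3.35 CPM in Z18trunc (log2 change -1.08, SE 0.22, edgeR adjusted p = 0.017). Clover replicate 2 fell among the Z18trunc libraries there. The AluSp in GTF2IP1, a pseudogene of a general transcription factor, was at 0, 0.193 and 0 CPM in Clover and at 1.11, 0.576 and 0.506 CPM in Z18trunc (log2 change 3.37, SE 0.72, edgeR adjusted p = 0.024). GTF2IP1 RNA itself had a log2 change of 0.37 (SE 0.09). Leaving out a library moved the number of calls to 1 without Z18trunc replicate 1, to 2 without Z18trunc replicate 2 or 3 and to 7 without Clover replicate 2. The AluSg4 of chromosome 21 was among them each time. Over all 12453 tested TE loci, leaving out a library gave 9 to 31 calls.

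All 4 called loci shared their whole sequence with other AluS loci, and their counts rested almost entirely on fragments that map to several places. Over the 6 libraries, uniquely mapped fragments gave 1.24%, 2.01%, 0.167% and 6.02% of the counts of the loci in the order named, a total of 4, 1, 1 and 3 fragments. Sharing of this kind touched 3412 AluS loci and 76 of the tested ones. The AluSg4 sequence occurs 4 times and the AluSp of chromosome 21 occurs 3 times, on chromosome 21 and on contigs with no fixed place. Each of these 7 copies lies 7386 to 7900 bp ahead of a small subunit ribosomal RNA repeat on the same strand, which is the layout of ribosomal DNA.

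Summed over the identical copies, the differences were smaller. The 4 AluSg4 copies together had 174, 187 and 149 counts in Clover and 132, 149 and 175 counts in Z18trunc, which overlapped (log2 change -0.16, SE 0.15, edgeR adjusted p = 0.78). Within that sum, the copy at chr21:8429171 took 131, 41.0 and 109 counts in Clover and 23.9, 8.28 and 9.91 in Z18trunc, while the copy on the unplaced contig took 42.7, 135 and 40.5 in Clover and 49.2, 130 and 144 in Z18trunc. In Clover replicate 2, as in Z18trunc replicates 2 and 3, the unplaced contig took most of the counts. The 3 AluSp copies together had 210, 187 and 179 counts in Clover and 144, 237 and 181 counts in Z18trunc (log2 change -0.02, SE 0.16, edgeR adjusted p = 0.98). The GTF2IP1 copy and its twin in an intron of GTF2IP4 had 11, 7.38 and 10 counts in Clover and 25, 16 and 22 in Z18trunc, without overlap, and did not pass (log2 change 1.15, SE 0.38, edgeR adjusted p = 0.27). With identical copies summed, edgeR called 0 AluS loci, against 0.169% of 12450 TE loci. At an unadjusted p under 0.05 there were 144 above (5.17%) and 56 below (2.01%), against 8.23% and 1.73%. This way of summing was chosen after the values had been seen.

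**Figure D3:**
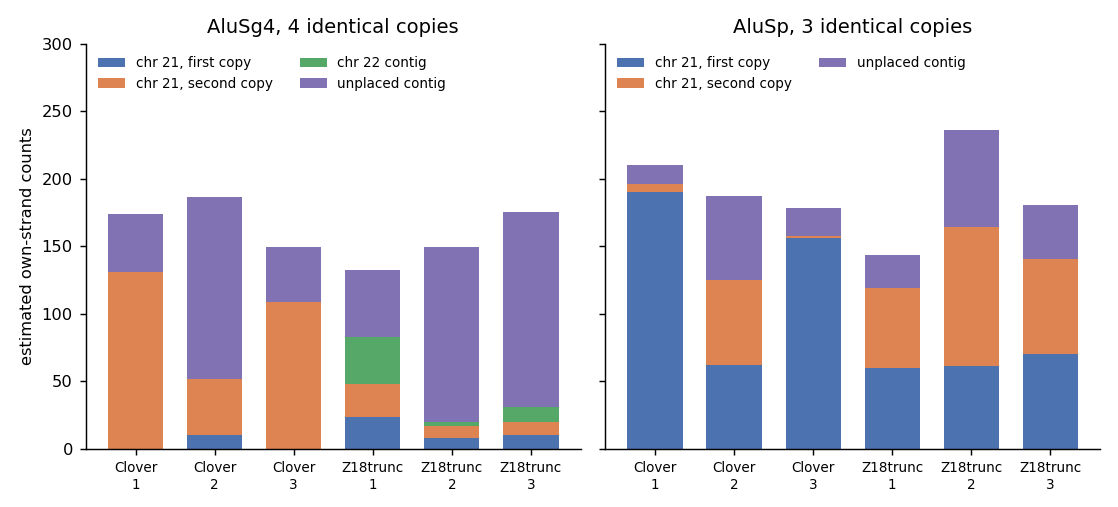
Estimated own-strand counts (y axis) of the identical copies of the called AluSg4 (left) and AluSp (right) in each library, stacked by copy, with 1 bar per library and no error bars. The split among copies differed between libraries, whereas the height of the stack ran from 132 to 187 counts for AluSg4 and from 144 to 237 counts for AluSp.

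Among the loci whose groups did not overlap, those with the next smallest p-values did not pass. The AluSz in the 3′ UTR of TRUB2, a pseudouridine synthase gene (chr9:128305380-128305688), was at 1.11, 1.49 and 2.04 CPM in Clover and at 0.579, 0.604 and 0.762 CPM in Z18trunc, lower in all 3 (log2 change -1.25, SE 0.33, edgeR adjusted p = 0.11), beside TRUB2 mRNA at 0.06 (SE 0.07). The AluSx in the 3′ UTR of ZDHHC20, a palmitoyltransferase gene (chr13:21374239-21374533), was at 5.25, 4.6 and 6.21 CPM in Clover and at 7.01, 8.56 and 8.29 CPM in Z18trunc (log2 change 0.57, SE 0.16, edgeR adjusted p = 0.14), beside ZDHHC20 mRNA at 0.48 (SE 0.10). The AluSq2 in an exon of AAK1 that is annotated as coding and as 3′ UTR, a kinase of clathrin coats, was at 0.312, 0.314 and 0.458 CPM in Clover and at 0.935, 0.933 and 1.19 CPM in Z18trunc (log2 change 1.49, SE 0.40, edgeR adjusted p = 0.13), beside AAK1 mRNA at 0.45 (SE 0.11). A 99 bp AluSz in the 3′ UTR of ZNF28 was at 0.0467 CPM as a mean in Clover, under the limit of detection, and at 0.440 CPM in Z18trunc, beside ZNF28 mRNA at 0.03 (SE 0.13). The AluSq in TRIM73 was lower in all 3 Z18trunc libraries, but it shares its sequence with a copy in TRIM74, and the sum of both copies overlapped.

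Over all tested AluS loci, the median log2 change was 0.11, against 0.17 over all tested TE loci. At an unadjusted p under 0.05, 148 AluS loci were higher (5.31%) and 60 lower (2.15%), against 8.17% and 1.77% of all tested TE loci. Under TMM scaling the split was 60 higher (2.15%) and 142 lower (5.09%), against 3.89% and 4.57% of all tested TE loci, and the medians were -0.06 for AluS and 0.0014 for all. By CPM, 265 AluS loci had all Z18trunc libraries above all Clover libraries (9.50%) and 125 had them below (4.48%), against 12% and 3.64%. By rank of FPKM with missing values as 0, over the 86323 AluS loci with an own-strand row, 1575 were higher and 913 lower without overlap. This is 1.82% and 1.06%, against 1.92% and 1.01% of 362082 TE loci. With at least 30 counts, 213 were higher (7.64%) and 127 lower (4.55%), against 9.83% and 3.73%.

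On the opposite strand, edgeR called 3 of 2957 tested AluS loci, all higher in Z18trunc, against 0.0575% of 12170 TE loci. The AluSx3 that runs against RCC1 and SNHG3, the genes of a Ran exchange factor and of a host of small nucleolar RNA (chr1:28509306-28509538), was at 17.5, 20.1 and 19.4 CPM in Clover and at 26.6, 26.3 and 29.96 CPM in Z18trunc (log2 change 0.54, SE 0.11, edgeR adjusted p = 0.042). An AluSq2 outside genes (chr1:24023151-24023449) was at 0.223, 0.314 and 0.153 CPM in Clover and at 1.11, 1.15 and 1.10 CPM in Z18trunc (log2 change 2.26, SE 0.43, edgeR adjusted p = 0.034). An AluSz6 on the short arm of chromosome 21 had no count in Clover and 1.08, 1.51 and 0.109 CPM in Z18trunc (edgeR adjusted p = 0.019). The value in Z18trunc replicate 3 lies under the limit of detection of that library, 0.143 CPM. These 3 are the opposite-strand AluS loci that passed, and they were named after their values were seen. Their uniquely mapped shares and any identical copies were not examined.

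The 17 AluS subfamilies ranged from AluSx1 with 29537 loci to AluSq10 with 432, and their median divergence ran from 8.70% in AluSg7 to 12.9% in AluSz6. Their level per 1000 loci ran from 17.3 CPM in AluSq10 to 40.3 CPM in AluSp, with median lengths of 295 to 300 bp. In subfamily sums on the own strand, edgeR called 0 of 17, against 1.89% of all 898 tested TE subfamilies, DESeq2 called 0 as well, and in edgeR 4 were higher at an unadjusted p under 0.05, against 24.6%. The 4 were AluSq4, AluSc, AluSz and AluSz6. AluSq4 had the largest change, with 8.24, 8.63 and 8.81 CPM in Clover and 10.3, 10.4 and 12.7 CPM in Z18trunc, without overlap (log2 change 0.38, SE 0.13, edgeR adjusted p = 0.098). AluSq, AluSq10 and AluSx3 were higher without overlap too, with log2 changes of 0.14, 0.27 and 0.11. The share of all TE subfamilies without overlap is not given here.

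The large subfamilies differed little between the groups. The log2 change was 0.09 (SE 0.06) in AluSx, 0.07 (SE 0.06) in AluSx1 and 0.13 (SE 0.06) in AluSz, with edgeR adjusted p-values of 0.34, 0.45 and 0.18. AluSx1 was at 1041, 1147 and 1041 CPM in Clover and at 1105, 1109 and 1172 CPM in Z18trunc, and Clover replicate 2 lay inside the Z18trunc range. The median change over the 17 subfamilies was 0.11, against 0.21 over all TE subfamilies, and TMM scaling moved these medians to -0.09 and 0.01. On the opposite strand, edgeR called 2 of 17 higher, against 12.6% of 903 subfamilies, AluSq4 (log2 change 0.38, edgeR adjusted p = 0.036) and AluSz6 (0.20, edgeR adjusted p = 0.041).

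**Figure D4:**
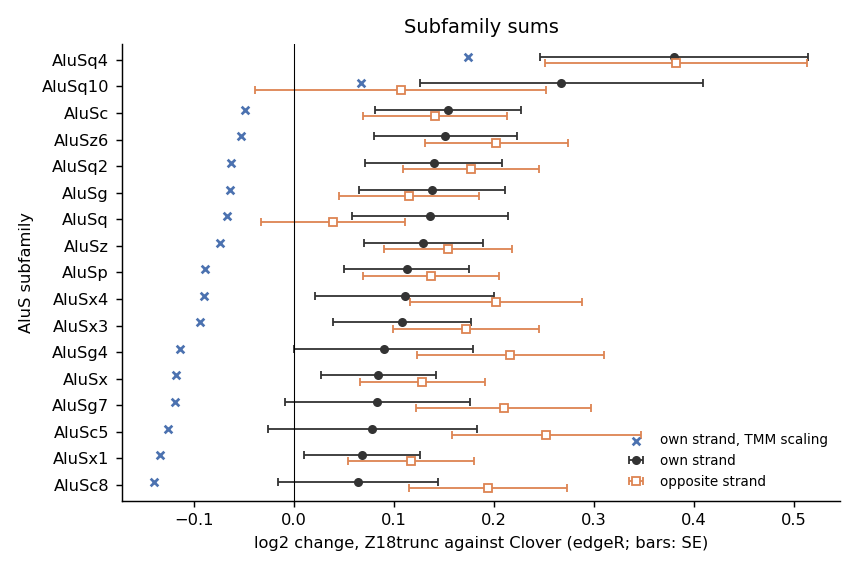
Log2 change of each AluS subfamily sum (x axis, Z18trunc against Clover, edgeR, with SE as bars) on the own strand (filled circles) and on the opposite strand (open squares), with the own-strand value under TMM scaling as crosses without bars. All 17 own-strand values lay above 0 with aligned fragments as the library size, and 15 lay below 0 under TMM scaling.

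Exonic copies were set beside the RNA of their host genes. Of 1683 tested exonic AluS loci, 1553 lay in 1155 host genes that were tested as well. The median log2 change of these loci was 0.10 and that of their hosts 0.17, and the median of locus minus host was -0.07. Across loci, the changes of locus and host correlated with a Pearson r of 0.26 and a Spearman rho of 0.31, and over the 268 loci with at least 300 counts with 0.65 and 0.69. Locus and host come from the same 6 libraries, and the host value includes fragments of the exon that holds the copy, so that these correlations are a description. In introns on the gene strand, 573 tested loci had a tested host, with a median change of 0.20 against 0.07 for the hosts, and r was 0.18. Loci are on the scale of CPM and hosts on that of log2(TPM + 1), which understates the change of low genes.

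**Figure D5:**
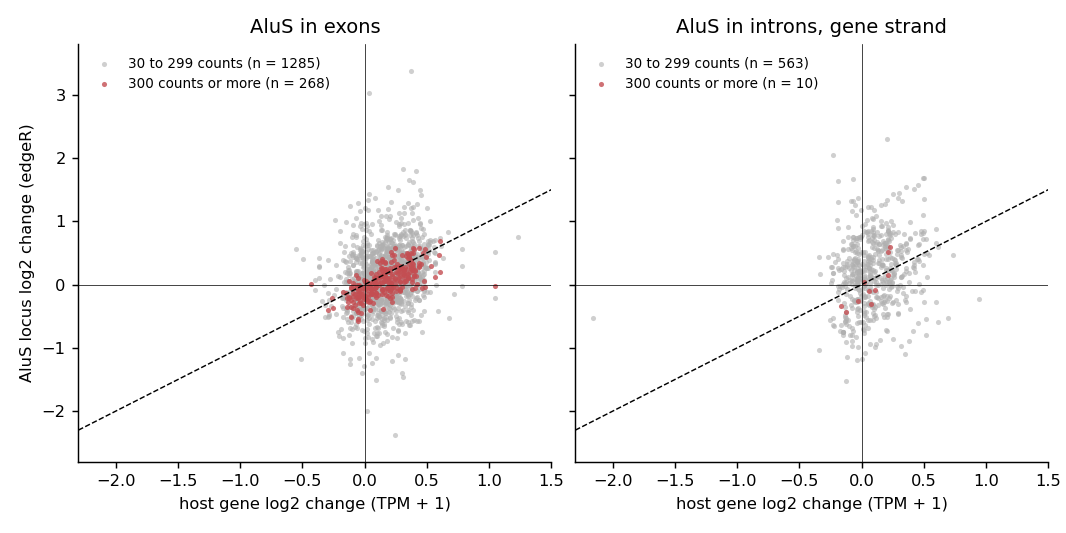
Log2 change of each tested AluS locus (y axis, edgeR on counts) against that of its host gene (x axis, limma on log2(TPM + 1)) for copies in exons (left) and in introns on the gene strand (right), with loci of at least 300 counts in red and the dashed line marking equal change. The 268 abundant exonic loci lay near the line, with a Pearson r of 0.65, and the other loci scattered widely around it.

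Some host genes carried many expressed copies. CYP20A1, a cytochrome P450 gene, held 11 tested exonic AluS loci, GABPB1-AS1, an antisense RNA, held 9, and METTL2B, IFT22 and POLH held 6 each. CYP20A1 RNA was at 5.35, 4.73 and 4.56 TPM in Clover and at 5.22, 5.70 and 5.38 TPM in Z18trunc, which overlapped. PRR11, with 5 tested copies, was at 24.7, 20.7 and 20.7 TPM in Clover and at 28.5, 29.6 and 29.3 TPM in Z18trunc (log2 change 0.39, SE 0.09, limma adjusted p = 0.079), without overlap. ORAI2, a calcium channel gene with 5 copies, had a log2 change of -0.05 (SE 0.07).

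Pairs of AluS copies in opposite directions were counted where both had at least 30 counts in the same direction of transcription and lay at most 1000 bp apart. There were 781 such pairs of 1240 loci, with a median gap of 470 bp, and in 422 the copy on the transcribed strand was exonic. Summed over pairs, with a locus counted in each of its pairs, RNA was 1757, 1846 and 1758 CPM in Clover and 1790, 1851 and 1891 CPM in Z18trunc, which overlapped (log2 difference 0.05, p = 0.2, exact permutation test). The most abundant pair, in SLC3A2, the gene of an amino acid transporter chain, was at 40.8, 37.5 and 38.4 CPM in Clover and at 36.8, 43.2 and 35.4 CPM in Z18trunc. The pair in RCC1 and SNHG3 was at 18.4, 21 and 20.6 CPM in Clover and at 27.8, 28.0 and 32.4 CPM in Z18trunc. Most of this is the AluSx3 already called on the opposite strand, with 17.5, 20.1 and 19.4 CPM in Clover and 26.6, 26.3 and 29.96 CPM in Z18trunc. The pair in MYADM overlapped between the groups at 31.4 to 37.3 CPM.

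AluS copies inside ZC3H18 were read beside the RNA of the gene. The gene (chr16:88570403-88631964) holds 12 AluS loci with a row, 3 of them on its strand, in introns. Together these 3 had 0, 2 and 1 counts in Clover and 1, 1 and 4 counts in Z18trunc, at or near the limit of detection. ZC3H18 TPM stood apart by 3.72 on the log2 scale and was already 51.3 to 61.8 in Clover. Spliced mRNA does not hold introns, so these counts cannot show whether resident transcripts were present or changed.

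Genes that act on Alu RNA were read from a list of 34, all of which were tested. limma called 0 of them, against 0.015% of 13300 genes. At an unadjusted p under 0.05, 10 of the 34 were higher, against 3404 of 13300 genes (25.6%). None was lower, against 386 of 13300 genes. Their median log2 change was 0.16, against 0.11 over all genes, and after quantile normalization 0.10 against -0.01. Of the proteins that bind Alu RNA in the signal recognition particle, SRP9 was at 178, 160 and 162 TPM in Clover and at 203, 200 and 205 TPM in Z18trunc (log2 change 0.28, SE 0.07, limma adjusted p = 0.084), while SRP14 stood at a log2 change of 0.10 (SE 0.07).

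Among helicases and editors, DHX9, which unwinds paired Alu RNA, was at 54.98, 50.2 and 57.1 TPM in Clover and at 75.2, 71.7 and 81.5 TPM in Z18trunc, without overlap (log2 change 0.49, SE 0.09, limma adjusted p = 0.077). ADAR was at 59.0, 43.2 and 60.3 TPM in Clover and at 65.2, 63.3 and 64.0 TPM in Z18trunc (log2 change 0.26, SE 0.13, limma adjusted p = 0.26). The RNA polymerase III subunit gene POLR3B was at 2.17 ± 0.39 TPM in Clover and 3.70 ± 0.62 TPM in Z18trunc (SD, n = 3 each; log2 change 0.57, SE 0.13, limma adjusted p = 0.078), and MAF1, the repressor of that polymerase, had a log2 change of -0.11 (SE 0.07). HNRNPC, which covers Alu sequences in introns, had 0.11 (SE 0.08), and MOV10 had -0.0035 (SE 0.07).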

How the data were processed

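Polyadenylated RNA was measured in 3 Clover and 3 Z18trunc libraries of SW480 cells, grouped by sample title. The authors made stranded libraries, trimmed reads with cutadapt 4.6 per the submitters' processing notes, aligned them to hg38 and ran SQuIRE. The deposited TE tables give raw counts of uniquely mapped fragments for each locus on each strand. They also give estimated counts in which the authors' tool had divided multiply mapped fragments among loci, and FPKM values from these. The deposited gene tables give TPM, which carry no counts. Other columns were not used here, and the version of SQuIRE and that of the aligner within the SQuIRE run are not given in the sources used here.

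Context was found with bedtools 2.31.1, from the gene spans and the exons of GENCODE 44. A locus was exonic if it overlapped an exon on its strand, and a copy in several kinds of exon counted as 3′ UTR first. Estimated counts were rounded and tested with edgeR 4.0.16 (R 4.3.3, quasi-likelihood) for each locus or subfamily that reached 30 counts, and aligned fragments served as library size, which leaves a common shift of TE RNA in the values. Benjamini-Hochberg adjustment ran over every tested locus or subfamily of 4 classes (DNA, LINE, LTR and SINE), with calls at 0.05. limma 3.58.1 tested genes whose mean TPM reached 1, on log2(TPM + 1). Sums were compared with exact permutation tests (scipy 1.17.1). DESeq2 1.42.0 was an alternative. The fits were checked on simulated data, which held no division of multiply mapped fragments among identical copies. Limits of detection cover counting error only, since there are no molecular identifiers. The SEs from edgeR and limma, the SDs and the p-values also include the spread between libraries.

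Named loci were the 8 highest, the 8 highest outside genes, every called locus, the 8 smallest p-values without overlap, and copies in ZC3H18. Members, lists and tests were chosen with earlier results of these data known. Libraries of a group differed by more than counting noise (chi-square over its degrees of freedom, 1.63 to 1.94). Motifs and shared sequences were found in hg38, and the sequences of the loci are not reported here. Ribosomal RNA repeats had 99.6% to 99.8% of their counts on their own strand.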

Additional observations from a re-analysis of the deposited data

How the results depend on the processing

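Scaling set the sign of small differences. Relative to TE counts of both strands the own-strand AluS sum differed by -0.069 on the log2 scale, and relative to opposite-strand TE counts outside exons by -0.17, in place of 0.11. Both of these denominators are TE counts that include AluS loci, so they set AluS beside TE RNA and not beside the whole library. That second scaling gave -0.22 in exons, -0.10 in introns on the gene strand, -0.18 against the gene strand and -0.18 outside genes, and from opposite-strand counts AluS against AluY differed by -0.034.

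At single loci, 7 named copies with positive values had negative ones under TMM scaling, opposite-strand scaling and DESeq2, in that order: -0.15, -0.26 and -0.14 in SLC2A3; -0.12, -0.24 and -0.12 in SYK; -0.0079, -0.12 and -0.0054 in TPM4; -0.079, -0.19 and -0.076 in NCAPD2; -0.10, -0.21 and -0.10 at the AluSg4 of chromosome 8; -0.14, -0.25 and -0.14 beyond GART; -0.020, -0.13 and -0.018 beyond RPP30. Leaving out a library gave -0.028 to 0.069 in SLC2A3, -0.030 to 0.15 in SYK and -0.31 to 0.11 at the AluSz of chromosome 8 (0.016 with uniquely mapped counts). With identical copies summed, the AluSg4 of the chromosome 22 contig had -0.16.

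edgeR called 2 of 925 AluS loci with at least 100 counts, against 36 of 3820 TE loci. With identical copies summed it called 0 of 2786, against 21 of 12450. With uniquely mapped counts it called 1 of 2068, against 27 of 8995. This was an AluSp in an intron on the gene strand (chr1:153605563-153605728), lower in Z18trunc (log2 change -1.97, SE 0.47, edgeR adjusted p = 0.019). By estimated counts it was at 0.979, 1.10 and 1.32 CPM in Clover and at 0.534, 0.439 and 0.476 CPM in Z18trunc, without overlap. DESeq2 called 2 AluS loci when adjusted over all tested loci. Of the 4 loci called by edgeR, DESeq2 gave an adjusted p, 0.071, to the AluSp of chromosome 21 and none to the other 3. With a library left out, edgeR called 1 to 7 of 2789 AluS loci, against 9 to 31 of 12453 TE loci. The contig copy was lost without Z18trunc replicate 1 (edgeR adjusted p = 0.11), and the AluSp of chromosome 21 and the GTF2IP1 copy were kept without Clover replicate 2 and lost without any other library, with log2 changes of -1.14 to -0.85 and 2.76 to 3.56 where lost. The GTF2IP1 call was also lost under TMM scaling (log2 change 3.21, edgeR adjusted p = 0.066) and opposite-strand scaling (3.12, edgeR adjusted p = 0.086). The NORAD copy had 0.16 by DESeq2 and 0.048 under opposite-strand scaling. Subfamily calls stayed at 0 apart from 2 on the opposite strand. Loci without overlap by rank numbered 340 with at least 30 counts, 213 higher (7.64%) and 127 lower (4.55%), against 9.83% and 3.73% of TE loci. They numbered 5270 to 6023 with a library left out, where fewer libraries make separation easier. The share over all TE loci was not computed with a library left out. Causes were not tested.

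Replicate numbers did not pair the libraries (correlations of same-numbered deviations -0.038 to -0.0073). The replicate block gave 5 AluS calls in place of 4, against 35 of 12453 TE loci. It called no AluS subfamily, against 7 of 898 TE subfamilies.

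Depth limits most AluS loci, since 83534 with a row fell under 30 counts. 3 libraries a group cannot give an exact p below 0.1.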
